A study of Drosophila melanogaster with 6 samples.

Results

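The Dpr and DIP genes encode 2 families of immunoglobulin domain proteins on the surface of neurons. They were taken from a table of raw gene counts of adult Drosophila melanogaster brain, first by name. Of 16725 genes with counts, 19 were listed as dpr followed by a number and 0 had a name starting with DIP-, because the table uses older names for several genes. A further 13 genes were therefore matched through the older names in the RefSeq gene table, namely dpr1 (listed as dpr), dpr21 and 11 DIP genes listed by their CG numbers. This gave 21 Dpr genes and 11 DIP genes, 32 genes in all, in 34 rows, as DIP-lambda was listed as 3 rows (CG40378, CG42644 and CG43676). All 34 rows passed the filter of at least 10 counts in at least 2 libraries and were tested.

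Dpr proteins (defective proboscis extension response, after dpr1, which was found through the response of flies to salt) and DIP proteins (Dpr-interacting proteins) bind each other across the contact between cells. Most DIPs bind several Dprs, and neurons that meet in a layer of the optic lobe often carry a matching pair. The pairs known best in flies are DIP-alpha with dpr6 and dpr10, DIP-gamma with dpr11, DIP-delta with dpr12, and DIP-beta with dpr8, dpr9 and dpr21, and they act in the matching of synaptic partners, in the survival of some neurons and in the innervation of muscles and mushroom body zones.

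The study compared polyA enrichment, which keeps RNAs with a polyA tail, with rRNA depletion, in which DNA probes bind rRNA and RNase H digests the hybrids. There were 2 brain libraries of each kind, numbered 1 and 2, from 5-day-old adult flies, with 15 brains pooled per sample and no treatment named. The study's methods give the stock as Canton-S, a wild-type strain, and the sample labels name no genotype. The sex of the flies was not given in the sources used here. The authors' methods state that total RNA was split for both kinds of library, and they call the 2 libraries of each kind biological replicates. Libraries with the same number were therefore read as a pair. Within each pair the marker sums for photoreceptors, fat body, muscle and hemocytes, given below, differed by label. Whether the libraries of a pair came from the same RNA was not tested. All fits with the replicate block rest on that pairing. The reported edgeR fits left the pairing out, and fits with the replicate number as a block are given beside them. Libraries of cultured S2 cells in the same series were left out.

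The total count was between 11838449 and 14295047 per library. The libraries differed more by their number than by their label. Across all 9737 genes tested, edgeR's quasi-likelihood test called 0 genes between the labels and 811 between the numbers, where a call needed an adjusted p-value (Benjamini-Hochberg) below 0.05 together with a change of more than 1 on the log2 scale, and the deviations of same-numbered libraries from the mean of their label had Pearson's r = 0.90 across genes, which are not independent replicates. Each library is therefore named by its label. The tissue label was checked against marker genes: all 6 neuron markers matched in the table were counted in every library and together made up between 7730 and 10034 CPM (counts per 1000000 counts of the library). Photoreceptor and fat body markers were also present, and differed by label. The 21 photoreceptor markers summed to 2628 and 3199 CPM under the label rRNA-depleted, against 6153 and 5480 CPM under polyA-enriched. The 11 fat body markers summed to 720.0 and 1319 against 12682 and 10214, the muscle markers to 55.4 and 101.5 against 314.5 and 422.9, and the hemocyte markers to 163.3 and 264.4 against 361.2 and 550.2.

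Counts of a gene are given below in the order rRNA-depleted 1, rRNA-depleted 2, polyA-enriched 1 and polyA-enriched 2. To compare genes with each other, counts were divided by the length of the gene's annotated exons in kb and by the library total, per 1000000 counts, and this quantity is called the level. Means and SDs of the level were taken over the 4 libraries. Such an SD holds the differences by label and by number, and is not a spread of replicates of 1 condition. All 34 rows had at least 10 counts in each of the 4 libraries, and 31 had at least 50. The Dpr genes lay higher than the DIP genes. The median level was 46.3 over the 21 Dpr genes and 18.6 over the 11 DIP genes, beside 15.8 over the 9101 protein-coding genes tested. All 21 Dpr genes and 7 of the 11 DIP genes were above that last value. Summed over each family, the Dpr genes took 3721, 3816, 3017 and 3138 CPM, and the DIP genes 805.7, 814.2, 641.9 and 675.9.

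Among the Dpr genes, dpr7, on the small chromosome 4 (247124 to 253329, minus strand, dm6), had the highest mean level, 130.3 ± 42.5 (SD, n = 4 libraries), from 3824, 2247, 3070 and 1362 counts. dpr12, the ligand of DIP-delta, followed at 108.0 (96.0 to 120.8 over the 4 libraries) with 7775, 6898, 6242 and 5557 counts, the largest counts of any member. The third was dpr21, a ligand of DIP-beta, with a mean level of 96.8 ± 58.1 (SD, n = 4). dpr21 spread widely, from 38.8 to 154.2. Its annotated exons were the shortest of all members at 993 bp, so its level depends strongly on that annotation. The annotated exons of dpr7 were short too, at 1515 bp. Its place above dpr12, which had more counts in every library, rests on that length. At the low end stood dpr15 (1278, 941, 928 and 717 counts, mean level 21.1), dpr2 (942, 811, 662 and 664 counts, mean level 19.5) and dpr16 (771, 627, 648 and 606 counts, mean level 17.4). The highest Dpr gene was thus 7.48 times the lowest. dpr9, dpr4, dpr18, dpr14, dpr19, dpr11, dpr8, dpr1, dpr13, dpr20, dpr10, dpr3, dpr17, dpr5 and dpr6 lay between, in that order, with mean levels from 66.4 down to 23.1.

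Among the DIP genes, DIP-gamma, known from the pairing of a class of R7 photoreceptors with Dm8 neurons, was highest, with 1597, 1306, 1365 and 1301 counts and a mean level of 34.5 ± 1.85 (SD, n = 4). DIP-theta (1421, 945, 1062 and 773 counts) had a mean level of 27.7 ± 4.94, and DIP-kappa (1402, 1459, 1101 and 1344 counts) one of 25.8 ± 4.52. DIP-eta, DIP-zeta, DIP-beta, DIP-delta and DIP-epsilon came next, with mean levels from 22.5 down to 13.9. DIP-lambda, over its 3 rows together, had a mean level of 13.8 ± 3.67. DIP-alpha, the receptor of dpr6 and dpr10, had 507, 898, 442 and 751 counts and a mean level of 5.70 ± 2.30. DIP-iota was the lowest of all members, with 16, 13, 22 and 11 counts and a mean level of 0.887 ± 0.217.

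The order of the levels was loose. Between neighbours in the order of all 32 genes, the ranges over the 4 libraries overlapped everywhere except below DIP-lambda and below DIP-alpha. DIP-lambda had levels from 10.3 to 18.8, DIP-alpha from 3.56 to 8.23 and DIP-iota from 0.700 to 1.20. The widest spread was that of dpr6, with a coefficient of variation of 77.0% over the 4 libraries, followed by dpr21 with 60.0%. The median over the 32 genes was 17.9%.

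**Figure D1:**
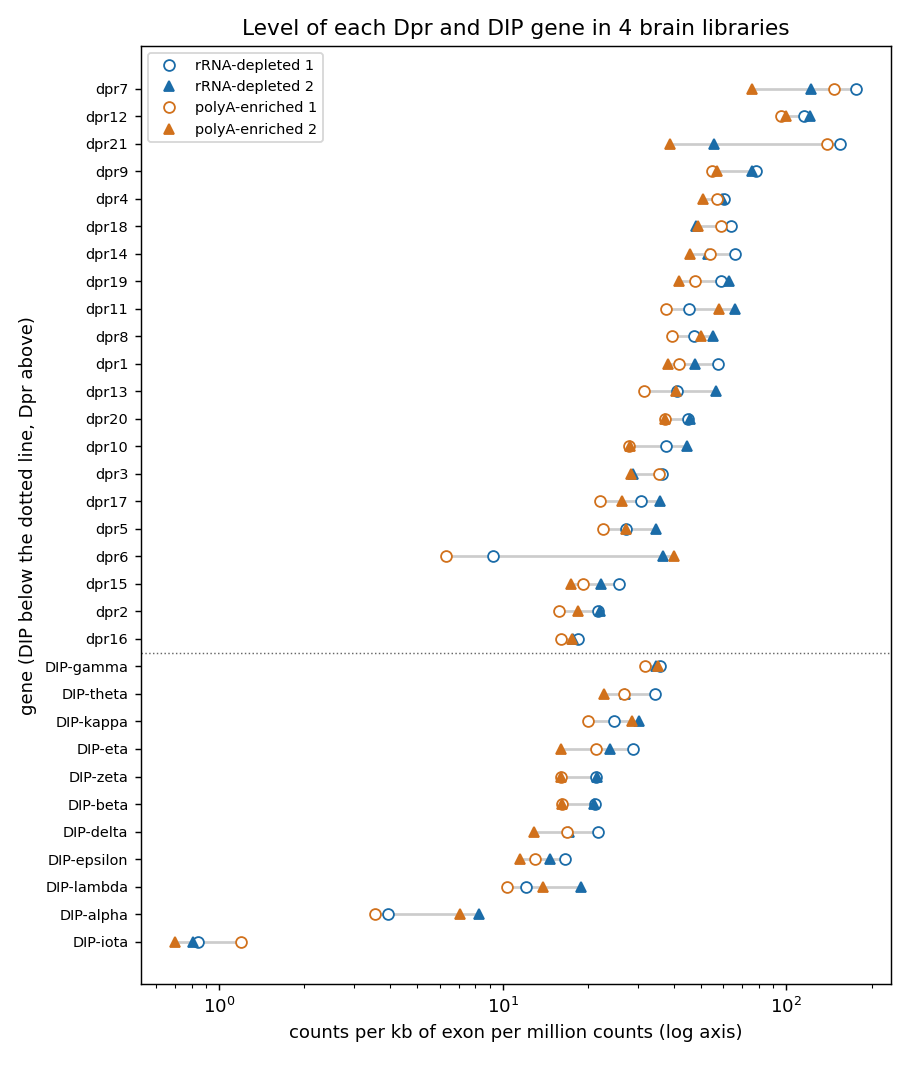
Level of each of the 32 Dpr and DIP genes (CPM per kb of exon, log axis) in the 4 brain libraries. Colour gives the label and marker shape the number, grey lines span the lowest to the highest library, and the DIP genes stand below the dotted line. dpr6 and dpr21 spread the most, DIP-alpha and DIP-iota have the lowest mean levels, and in dpr6 the 2 libraries numbered 2 lie far above the 2 numbered 1.

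The receptors and ligands of the known pairs were not present at matching levels in whole brain. DIP-alpha, at a mean level of 5.70 and with levels up to 8.23, stood below its ligand dpr10 (34.5) in every library. Its other ligand dpr6 had levels of 9.28 and 6.32 in the libraries numbered 1 and of 36.7 and 40.2 in those numbered 2, so their ranges overlapped over the 4 libraries, although dpr6 was above DIP-alpha in each of them. DIP-gamma, at 34.5, lay below dpr11 at 51.6, and their ranges over the libraries, from 31.8 to 36.0 and from 37.5 to 65.9, did not overlap. The widest gap within these pairs was that between DIP-delta at 17.1 and dpr12 at 108.0. DIP-beta, at 18.6, lay below the ligands listed with it above, dpr8 at 48.0, dpr9 at 66.4 and dpr21 at 96.8. dpr6, which binds DIP-beta too, was below it in the libraries numbered 1, where DIP-beta had 21.2 and 16.2. In those numbered 2 dpr6 was above DIP-beta, which had 20.9 and 16.2. These are levels over all cells of the brain, and which cells held each RNA was not measured. In bulk samples fewer cells of a type and less RNA per cell cannot be told apart.

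The comparison of labels asks whether the counts of the Dpr and DIP genes differ between the kinds of library. The marker sums for fat body, muscle and photoreceptors differed by label too. By the authors' methods, the amount of total RNA used also differed between the kinds of library. Recovery by the library method was therefore not tested apart from tissue content or RNA amount. Without the pairing, no member was called in either direction, against 0.0% of all genes higher and 0.0% lower. In edgeR's quasi-likelihood test without the block 0 of the 34 rows had an unadjusted p-value under 0.05, against 1103 of 9737 genes. DESeq2 also called 0 rows. With the replicate number as a block, 27 of the 34 rows had an unadjusted p-value under 0.05 in edgeR, against 3791 of 9737 genes. The values lay mostly on one side. The log2 fold change, libraries labelled rRNA-depleted over those labelled polyA-enriched, was above 0 in 33 of 34 rows, with a median of 0.37 beside 0.04 over all genes tested. It was 0.34 for the Dpr genes and 0.41 for the DIP rows.

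Within the pairs the same was seen. The log2 ratio was above 0 in both pairs for 31 of 34 rows, beside 39.6% of all genes, and its median was 0.32 in pair 1 and 0.42 in pair 2. The 3 exceptions were DIP-iota, dpr6 and the CG43676 row of DIP-lambda. In 20 of 34 rows both libraries labelled rRNA-depleted lay above both labelled polyA-enriched, and in 0 rows below, beside 11.8% and 20.6% of all genes. With the replicate number as a block, 0 members passed both thresholds, beside 0.349% of genes called higher and 12.1% called lower. Taking the adjusted p-value alone, a choice made after seeing the data, 23 of 34 rows (16 Dpr genes and 7 DIP rows) were higher and 0 lower in the blocked edgeR fit, beside 11.1% higher and 19.2% lower of all genes. The differences were below 2-fold in every row.

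dpr10, a ligand of DIP-alpha that also acts in muscle innervation, had the largest label difference. Its counts were 1903, 1920, 1365 and 1177, and both libraries labelled rRNA-depleted were above both others. Its log2 fold change was 0.62 (standard error 0.24, n = 2 libraries per label, edgeR adjusted p = 0.51), and 0.60 (standard error 0.11, edgeR adjusted p = 4.3e-06) with the block. The CG42644 row of DIP-lambda followed at 0.61 on low counts of 64, 75, 55 and 39 (edgeR adjusted p = 0.098 with the block). DIP-eta had 1225, 866, 878 and 567 counts, where the groups did not overlap after scaling to library size, and a log2 fold change of 0.55 (standard error 0.24), with edgeR adjusted p = 0.00013 under the block.

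DIP-beta and its ligands had label values of the same direction, none of them called. dpr9 had 5397, 4433, 3657 and 3262 counts and a log2 fold change of 0.51, DIP-beta 1603, 1343, 1180 and 1011 counts and 0.44, and in both genes the labels did not overlap. Their blocked edgeR adjusted p-values were 7.5e-06 and 0.0011. dpr8, with 3357, 3331, 2697 and 2924 counts, had 0.26, and its labels overlapped. DIP-delta (1484, 1002, 1115 and 735 counts) had 0.44 and its ligand dpr12 had 0.33. DIP-gamma had 0.12 and its ligand dpr11 (3015, 3720, 2412 and 3176 counts) had 0.29.

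Among the other members the label values were of the same size. dpr17 (0.52), dpr19 (0.50), dpr13 (0.49), dpr7 (0.48), DIP-zeta (0.47), dpr15 (0.44), dpr1 (0.44), DIP-epsilon (0.41), dpr2 (0.41), dpr5 (0.37), DIP-theta (0.37), dpr20 (0.34) and dpr14 (0.31) all had blocked adjusted p-values under 0.05 in edgeR, as did dpr21 and the CG40378 row of DIP-lambda. The members that did not pass with the block were DIP-alpha, DIP-gamma, DIP-kappa, DIP-iota, the CG42644 and CG43676 rows of DIP-lambda, dpr3, dpr4, dpr6, dpr16 and dpr18. At the low end, dpr3 (1649, 1108, 1555 and 1064 counts) had a log2 fold change of 0.08, dpr6 one of 0.06 and DIP-iota one of -0.15, and their labels overlapped.

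**Figure D2:**
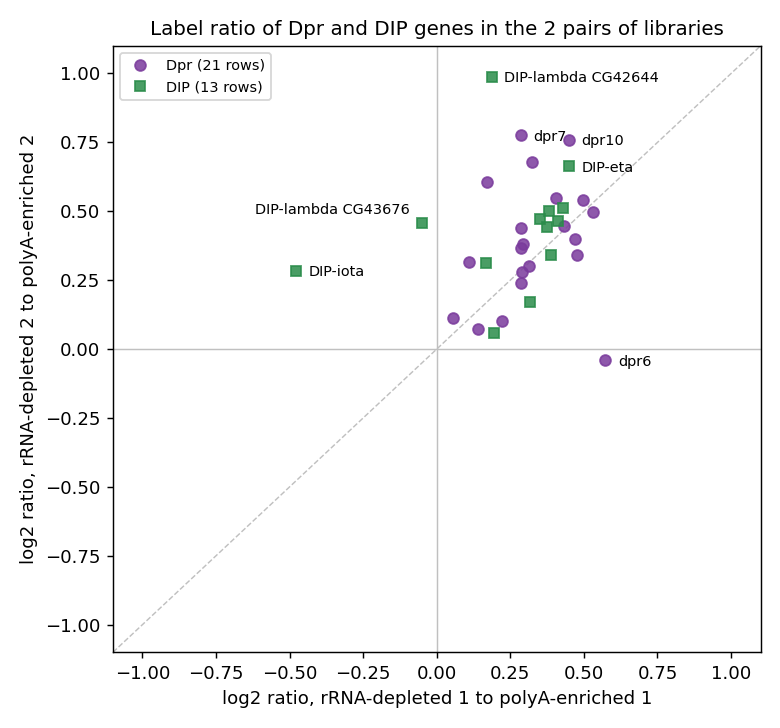
Log2 ratio between the labels (rRNA-depleted over polyA-enriched) for the libraries numbered 1 (x axis) and for those numbered 2 (y axis), 1 point per row of the Dpr and DIP genes, with the diagonal dashed. Of 34 rows, 31 lie above 0 in both pairs, and dpr6, DIP-iota and the CG43676 row of DIP-lambda do not.

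Summed over all members, the families took 4527 and 4630 CPM under the label rRNA-depleted, against 3659 and 3814 CPM under polyA-enriched. The ratio of the means was 1.23, and the groups did not overlap. An exact two-sided permutation test of 2 libraries against 2 gave p = 0.33, which is the smallest value this design allows. The marker sums for photoreceptors, fat body, muscle and hemocytes lay the opposite way with the label (15 of 21, 11 of 11 and 11 of 14 markers tested were lower with no overlap, as were 4 of 4 hemocyte markers), the neuron markers lay the same way (6 of 6 above 0, median log2 fold change 0.23), and the median of 7 glia markers was 0.10. The part of these in the values of the Dpr and DIP genes was not tested.

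Other cell surface receptors and ligands of neurons were read beside them. The beat and side families, immunoglobulin domain proteins that also bind each other and guide axons, had medians of 0.35 over 13 beat genes and 0.36 over 8 side genes between the labels, with log2 fold changes above 0 in 12 and 8 of them. With the block and without a fold change threshold, 10 beat and 5 side genes were higher and 0 lower. Over 57 further recognition genes the median was 0.28, with 35 higher and 6 lower in that fit. The label values of the Dpr and DIP genes were of the size seen in these lists, and a difference between the lists was not tested.

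The libraries numbered 2 were then compared with those numbered 1. The numbers stand for the biological replicates, and how these differed is not given further in the sources used here. Grouping by number was known to separate the libraries. If total RNA was split, each number is 1 RNA sample, and this comparison sets 1 biological sample against 1. The 2 libraries of a number are then not biological replicates of each other. The p-values by number do not measure the spread between biological samples in that case. Over the family as a whole there was little shift, with a median log2 fold change of 0.08, numbered 2 over numbered 1, beside 0.05 over all genes. Values above 0 were found in 20 of 34 rows. Both libraries numbered 2 were above both numbered 1 in 8 rows and below in 5, beside 33.9% and 27.7% of all genes, so the members separated by number no more often than genes in general. edgeR's quasi-likelihood test called 2 members higher and 1 lower, beside 5.91% and 2.42% of all genes, and with the label as a block 2 higher and 2 lower, beside 10.5% and 5.42%. On the adjusted p-value alone the members called were the same 3 without the block, beside 8.93% of all genes higher and 4.47% lower, and 9 higher and 6 lower with the block, beside 31.5% and 24.7%. When any of the 4 libraries was left out, 0 members were called in either direction, and the count of all genes called went from 811 to between 0 and 5. Without 1 library the log2 fold change of dpr6 was 2.00 to 2.69, that of DIP-alpha 0.91 to 1.26 and that of dpr21 -1.86 to -1.27. With no filter on low counts 0 members and 149 genes were called.

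The largest change was that of dpr6, a ligand of DIP-alpha that also binds DIP-beta. It lies on 3L from 9974651 to 10139360 on the plus strand and spans 164.7 kb, the longest Dpr gene. It had 837 and 551 counts in the libraries numbered 1 and 2815 and 3004 in those numbered 2, with no overlap and with each label showing the difference. The log2 fold change was 2.38 (standard error 0.24, n = 2 libraries per number, edgeR adjusted p = 0.030), a 5.19-fold difference. Its log2 ratio was 2.10 within the label rRNA-depleted and 2.71 within polyA-enriched. The genes nested in dpr6 on the other strand had at most 4 counts in any library.

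dpr10, the neighbour of dpr6 at a distance of 8.09 kb on the opposite strand, had a log2 fold change by number of 0.24 (standard error 0.33, edgeR adjusted p = 0.69), and its numbers overlapped. Their common receptor DIP-alpha (X, 3507245 to 3571649, minus strand) did differ by number, with 507 and 442 counts in the libraries numbered 1 and 898 and 751 in those numbered 2. Its log2 fold change was 1.11 (standard error 0.17, edgeR adjusted p = 0.038), or 2.15-fold, and the numbers did not overlap. DIP-alpha shares 158 bp of exon with CG2875 on its own strand and 106 bp with ppk8 on the other, and the strand setting of the counting is not given in the sources used here. CG2875 had 153, 203, 194 and 194 counts and ppk8 had 24 to 38, each fewer than DIP-alpha in every library.

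dpr21, a ligand of DIP-beta, changed in the other direction. It lies on 2R from 3066499 to 3191011 on the plus strand, and had 2189 and 1904 counts in the libraries numbered 1 and 670 and 456 in those numbered 2. Its log2 fold change was -1.55 (standard error 0.25, edgeR adjusted p = 0.040), so the libraries numbered 1 were 2.93-fold higher, without overlap. Its receptor DIP-beta had a log2 fold change of 0.07, and the ligands dpr8 and dpr9 had 0.36 and 0.08, none of these 3 called. dpr6, which binds DIP-beta too, was called in the other direction.

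The 3 rows of DIP-lambda did not move together. CG40378 had 289 and 222 counts in the libraries numbered 1 and 464 and 347 in those numbered 2, a log2 fold change of 0.98 (edgeR adjusted p = 0.076, and 3.4e-08 with the label as a block). CG43676 had 73 and 74 counts in the libraries numbered 1 and 24 and 18 in those numbered 2, a log2 fold change of -1.49 (edgeR adjusted p = 0.067), and was called with the block (-1.50, edgeR adjusted p = 3.7e-05). CG42644, with 0.25, overlapped between the numbers. The current annotation joins these rows in 1 transcript over 379.1 kb of 2R, and the difference between the rows was not tested.

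The remaining members had smaller log2 fold changes than those called, and were not called. dpr11 had a log2 fold change of 0.66 (edgeR adjusted p = 0.086) and dpr7 one of -0.62 (edgeR adjusted p = 0.26). DIP-kappa (0.47), dpr13 (0.50), dpr5 (0.40), dpr8 (0.36) and dpr11 separated upwards, with each library numbered 2 above each numbered 1, while dpr18 (-0.26; 2404, 1537, 2135 and 1517 counts), dpr3 (-0.25) and dpr7 separated downwards. In the pairs best known, DIP-gamma (0.12) and DIP-delta (-0.27) overlapped between the numbers, as did dpr12 (0.14). DIP-eta and DIP-theta, which lie 8.34 kb apart on the same strand of 2L, had -0.24 and -0.22. dpr17 had 0.32 and DIP-iota, on its low counts, -0.35. The values of DIP-epsilon, DIP-zeta, dpr1, dpr2, dpr4, dpr9, dpr14, dpr15, dpr16, dpr19 and dpr20 lay between -0.20 and 0.19.

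**Figure D3:**
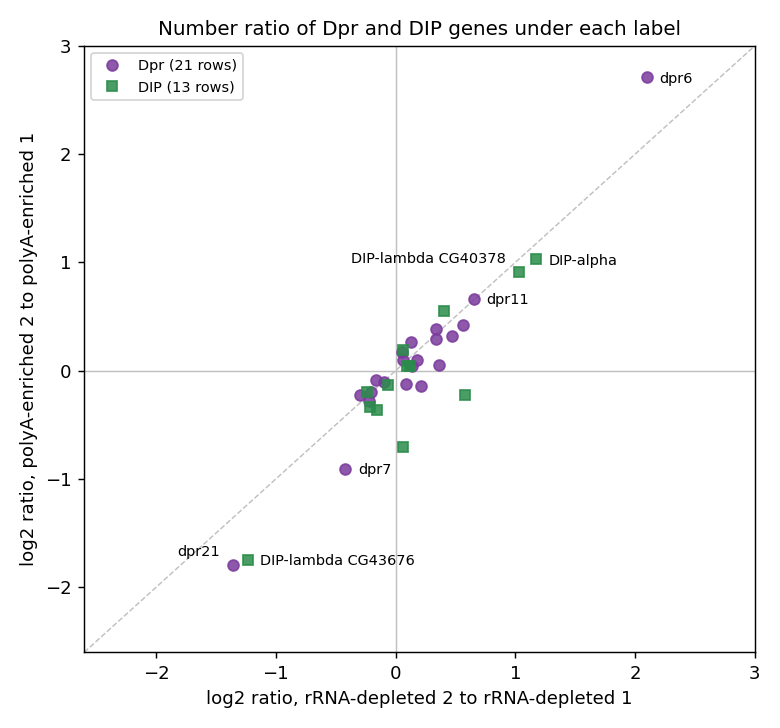
Log2 ratio of the library numbered 2 to the one numbered 1 within the label rRNA-depleted (x axis) and within the label polyA-enriched (y axis), 1 point per row of the Dpr and DIP genes, with the diagonal dashed. dpr6 and DIP-alpha lie above 1 under both labels, and dpr21 and the CG43676 row of DIP-lambda below -1 under both.

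In the lists read beside them, the numbers gave other values. The side genes had a median log2 fold change by number of 0.67 with 8 of 8 above 0, the beat genes 0.19 with 8 of 13 above 0, and 0 of either family were called without the block. Of the 57 further recognition genes 6 were called higher and 0 lower, with a median of 0.56. Single markers of 1 cell type had values in both directions. The glia markers summed to 6247 and 5448 CPM in the libraries numbered 1 and to 3834 and 3584 in those numbered 2, and the neuron markers to 10034 and 8818 against 8866 and 7730. Of 7 glia markers 2 had log2 fold changes above 0, repo (0.64) and moody (0.75), while the abundant Gs2 had -0.90 and nrv2 -0.69. Of 6 neuron markers 2 were above 0, brp (0.99) and elav (0.48), while nSyb had -0.70 and fne -0.79. The part of either in the changes of dpr6, DIP-alpha and dpr21 was not tested.

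Many Dpr and DIP genes have long introns, a feature that the selection did not use. Their median summed intron length was 29.4 kb, beside 0.486 kb over the 9070 other protein-coding genes tested. More than 10 kb of intron was found in 24 of 32 members (75.0%), beside 13.6% of the others. DIP-lambda, dpr6, dpr8 and dpr21 spanned 379.1, 164.7, 140.1 and 124.5 kb, while dpr19, dpr20, DIP-iota and dpr14 spanned 3.74 to 4.58 kb. Across the 31 genes with 1 row, Spearman's rho between intron length and log2 fold change by number was 0.41, beside 0.22 over the other genes, and it was 0.49 without dpr6 and dpr21. Between exon length and the change by number it was 0.53, beside 0.52 over the other genes. With the label difference rho for intron length was -0.25, and -0.15 without dpr6 and dpr21, beside 0.086 over the other genes. These are descriptions across genes that share libraries. Both dpr6 and dpr21, which changed in opposite directions, had more than 100 kb of intron.

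Several of these long introns hold other genes, and those in Dpr genes on the strand of the host differed in counts between the numbers. There were 8 genes counted within introns of Dpr genes on the strand of the host that shared no exon with it. All 8 had more counts in the libraries numbered 2. Of all 740 such genes in the whole table, 71.2% had both libraries numbered 2 above both numbered 1. The pattern is thus common to genes nested on the host strand and not particular to Dpr hosts. Summed, they had 53, 780, 37 and 587 counts. CG1137, in dpr11, had 13, 315, 13 and 236 counts, and CG6628, in dpr10, had 1, 163, 3 and 122. CR44660 in dpr1 had 2, 44, 1 and 40, and in dpr8 betaNACtes3 had 5, 34, 0 and 31 and betaNACtes4 had 2, 75, 1 and 53. The 2 lncRNA genes in dpr2 had 2, 50, 0 and 39 counts (CR44492) and 0, 36, 0 and 21 counts (CR44493). The smallest difference was that of CG12590 in dpr16, with 28, 63, 19 and 45 counts. These differences are given as counts with no test, since several of these genes reach 10 counts in the libraries numbered 2 alone.

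On the other strand the picture was different. The 15 genes nested in Dpr introns on the strand opposite to the host had 3, 9, 5 and 9 counts in sum, with at most 4 in any library. Of the 4 genes nested in DIP genes on the host strand, 1 separated upwards and 1 downwards. CG10918 in DIP-beta had 23, 53, 21 and 42 counts, while CR34335 in DIP-alpha had 7725, 3877, 8270 and 3416, lower in the libraries numbered 2. CG42369 in DIP-epsilon followed the label, with 162, 174, 2015 and 1139 counts. Over Dpr and DIP hosts together, 9 of the 12 nested genes on the host strand had both libraries numbered 2 above both numbered 1, and 1 below. Over all 740 such genes listed in the whole table, with no count minimum, the shares were 71.2% and 3.65%, so the count in Dpr and DIP hosts was near the background. Of the 26 nested genes on the other strand 4 separated upwards and 1 downwards, beside 12.7% and 8.71% of 1056. The 4 that separated upwards had at most 4 counts in any library. Of the 26, 11 had no count and only 1 reached 10 counts in any library. The 6 Dpr hosts of these genes had log2 fold changes by number of 0.24 for dpr10, -0.13 for dpr1, 0.19 for dpr2, 0.11 for dpr16, 0.36 for dpr8 and 0.66 for dpr11, none called in edgeR without the block, while the numbers did not overlap in dpr8 and dpr11. DIP-alpha, the host of CR34335, was called higher as given above. Whether the counts on the nested genes come from their own transcripts or from introns of the hosts was not tested. The split by strand was chosen after the counts were seen.

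**Figure D4:**
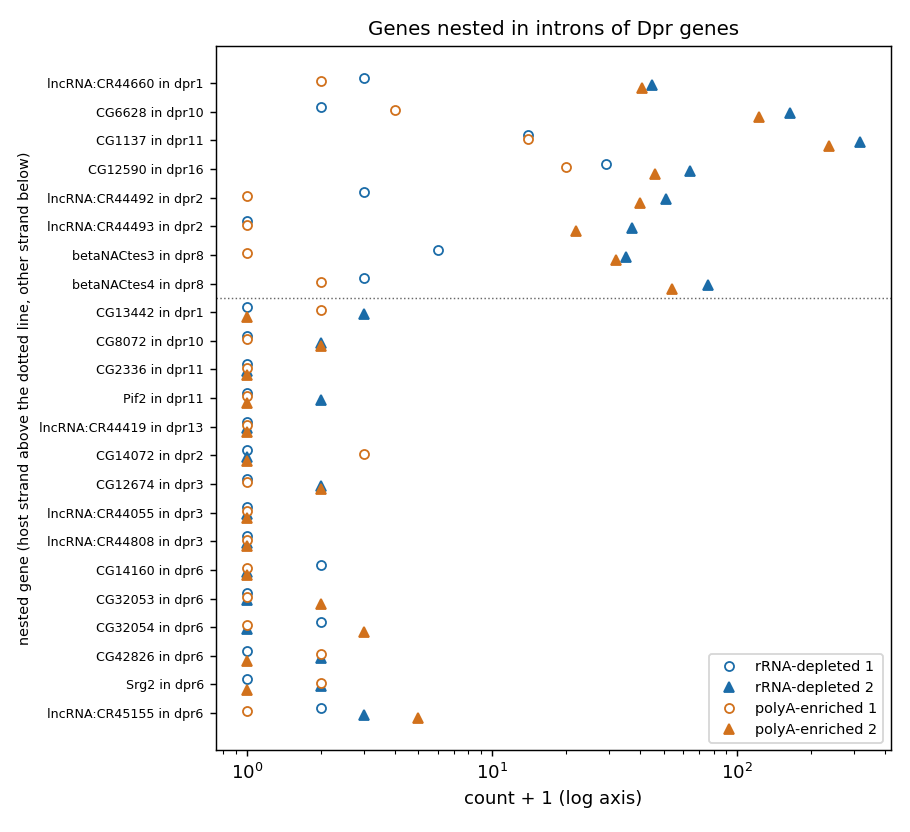
Counts plus 1 (log axis) of the 23 genes nested in introns of Dpr genes, in the 4 brain libraries. Genes on the strand of the host stand above the dotted line and genes on the other strand below it, colour gives the label and marker shape the number. The 8 genes on the host strand have more counts in both libraries numbered 2, and the 15 on the other strand have at most 4 counts. Of all 740 genes nested on the host strand in the whole table, 71.2% were higher in both libraries numbered 2.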

How the data were processed

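Brain RNA of adult flies was sequenced by the authors after polyA enrichment or rRNA depletion. Reads were trimmed (Trimmomatic), aligned to dm6 (STAR) and counted on genes (featureCounts) by the authors, and the deposited values are raw counts, 1 column per library, with no normalization. The annotation, the strand setting and the handling of multimapping reads are not given in the sources used here. All columns were assigned by the library names. Of 16729 rows, 4 were left out (Dscam1 and para, which had no counts, and 2 rows of exon coordinates), and 16501 of the rest were matched to 1 gene of the Ensembl BDGP6 annotation, which has dm6 coordinates and gave exon lengths and positions.

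Counts were tested with edgeR 4.0.16 in R 4.3.3 (quasi-likelihood test, TMM factors) over the 9737 genes that reached 10 counts in 2 or more libraries, with Benjamini-Hochberg adjustment over all of them. A call needed an adjusted p-value below 0.05 and a change of more than 1 on the log2 scale. Standard errors of the log2 fold change were derived from its size and the F statistic of the quasi-likelihood test. They hold the same information as the p-value and are no separate estimate of the spread. Ratios within pairs were taken on scaled counts with 0.5 added. The pairing comes from the split of total RNA in the authors' methods and from the library numbers, and libraries of 1 number deviated from their label means together, with Pearson's r = 0.902 over 9737 genes. DESeq2 1.42.0 was the alternative tool. Counts were also simulated with 4-fold changes and a dispersion of 0.02. On these counts edgeR recovered 96.5% to 99.0% of the changed genes among 9577 to 9593 genes, with at most 2 others called. DESeq2 recovered 92.8% to 93.4%. Recovery at the spread of the brain libraries, which also differed by number, was not tested, nor was recovery of smaller differences. Other steps used Python 3.11.15.

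The members, the lists and the tests were chosen with earlier results of these data known. Every member is named. Counts in all 4 libraries are given for the 3 highest and 3 lowest levels in each family, the members called in either comparison, the 3 largest changes in each direction and the best known pairs. Values of further members and of nested genes were added after they were seen. Other normalizations, filters, thresholds, gene lengths, the replicate block and leaving out each library were tried as alternatives.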

Additional observations from a re-analysis of the deposited data

How the results depend on the processing

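All 34 rows kept at least 10 counts in each library when the libraries were drawn down to 11838449 counts. This draw cannot show whether depth limits detection. The smallest count, 11 for DIP-iota, was in polyA-enriched 2, the library with the smallest total, which the draw left as it was. With 2 libraries per group the calls rest on an estimate of the spread that 1 library can change. Over all settings other than leaving out a library, the sign of a member's log2 fold change differed from the reported one in 2 of 204 values between the labels and in 11 of 204 between the numbers. When 1 library was left out it differed in 15 of 136 and 28 of 136. The cause of the changes below was not tested.

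Between the labels, 0 genes were called in either direction in the reported edgeR fit. With the replicate block 34 genes were called higher and 1180 lower, with DESeq2 2 and 546, with no filter 255 lower and with at least 10 counts in all 4 libraries 153 lower. With the block and no fold change threshold 1085 genes were higher and 1867 lower, with 23 members higher. Leaving out 1 library gave 0 to 13 genes higher (13 without polyA-enriched 2) and 0 to 457 lower (457 without rRNA-depleted 2 and 364 without polyA-enriched 2). The median label log2 fold change was 0.34 for the Dpr genes, 0.40 with DESeq2 size factors and 0.40 with DESeq2, and 0.26 to 0.41 without 1 library, and for the DIP rows it was 0.37 to 0.50 without 1 library. The label value of dpr6 was -0.0159 with library totals and -0.0043 with at least 10 counts in all 4 libraries. Without 1 library, the label values ranged from -1.36 to 1.97 for dpr6, -0.45 to 0.86 for DIP-alpha, -0.47 to 0.31 for DIP-iota, -0.56 to 1.52 for dpr21, -0.0624 to 0.28 for dpr3, -0.19 to 0.95 for CG40378 and -0.68 to 1.30 for CG43676. The replicate block changed no other call of a member at the reported thresholds between the labels.

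Between the numbers, 2 members were called higher with edgeR, 1 with DESeq2 size factors, 0 with no filter and 9 with the label as the replicate block and no fold change threshold. The count called lower was 1, and it was 2 with the replicate block, 2 with at least 10 counts in all 4 libraries, 0 with no filter and 6 with the block and no fold change threshold. Leaving out 1 library gave 0 to 0 members in both directions, whichever library it was. DIP-alpha missed the threshold with DESeq2 size factors (adjusted p = 0.055) and with no filter (adjusted p = 0.081), as did dpr6 (adjusted p = 0.055) and dpr21 (adjusted p = 0.060) with no filter, all in edgeR. CG43676 was called with at least 10 counts in all 4 libraries (edgeR adjusted p = 0.044). Over all genes, 575 were higher and 236 lower. The counts were 1026 and 528 with the replicate block, 119 and 30 with no filter, 870 and 435 without a fold change threshold, and 3072 and 2401 with the block and no fold change threshold. The count higher was 380 with at least 10 counts in all 4 libraries, the count lower was 381 with DESeq2, and without 1 library 0 to 5 genes were higher and 0 to 0 lower. The median by number was 0.10 for the Dpr genes, 0.07 for the DIP rows and 0.08 for both. It was 0.0141 for the Dpr genes and 0.00072 for both with library totals, -0.0489, -0.0774 and -0.0676 with no filter, and 0.0254 for both with DESeq2 size factors and with DESeq2. Without 1 library it ranged from -0.16 to 0.31, -0.31 to 0.22 and -0.20 to 0.28. Sign changes without 1 library also occurred by number for DIP-eta (-0.59 to 0.0607), CG42644 (-0.31 to 0.67) and dpr10 (-0.17 to 0.57).

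With TMM scaling in place of library totals, the difference in summed counts per 1000000 between the labels was 823.3 in place of 691.1 for the Dpr genes, 179.1 in place of 151.1 for the DIP genes and 1002 in place of 842.2 for both. With the longest transcript in place of all exons, 18 of 32 genes kept their rank in the order of levels and the largest shift was 3 ranks. The level moved to 36.9 for dpr17 and to 22.0 for DIP-beta.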
